A study of Mus musculus with 4 samples.

Results

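The 9 genes described here are linked to Parkinson disease or to its proteins, and were taken by symbol from the mRNA table: Sncb, Pink1, Park7, Lrrk2, Vps35, Fbxo7, Uchl1, Atp13a2 and Dnajc6. Each had 1 row among the 22287 genes of the table. The data come from N2a cells, a line of mouse neuroblastoma, a tumour of the sympathetic lineage, whose strain the labels give as C57BL/6. One total RNA library came from untreated N2a cells and the other from cells cultured for 48 h with 300 µM manganese (Mn) in MEM medium, and ribosomal RNA was removed from both. The treatment text is the same for every library, so the titles alone decided which was treated. With 1 library per condition there is no replicate, no difference below has a test across cultures, and every ratio compares these libraries, not the conditions.

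Parkinson disease is the loss of dopamine neurons of the substantia nigra, and its inherited forms point to a few cell processes. PINK1 marks damaged mitochondria for removal, DJ-1 (Park7) guards against oxidants, and LRRK2 phosphorylates Rab proteins of vesicle traffic. VPS35 is the core of retromer, which returns cargo from endosomes, auxilin (Dnajc6) helps to strip clathrin from vesicles, and ATP13A2 exports polyamines from lysosomes. FBXO7 is a substrate receptor of a ubiquitin ligase, UCHL1 a ubiquitin hydrolase of neurons, and beta-synuclein (Sncb) a presynaptic protein. Excess manganese damages the basal ganglia and gives a parkinsonian movement disorder, and cells that lack ATP13A2 are known to be sensitive to manganese.

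Reads on mRNA genes numbered 13972437 without and 14606961 with Mn. The identity of the cells was checked with markers of neuroblastoma and neurons, such as Chga and Tubb3. The 10 reported here each had 20 or more reads in both libraries together, and other listed markers are not reported here. Their summed level was 4276 CPM (counts per 1000000 mRNA reads) without Mn and 4278 CPM with it. Tubb3, with 33400 and 33715 reads, and Uchl1, itself a member, made up 86.5% and 85.5% of that sum. Others moved apart, such as Chga with 1634 and 2451 reads and Isl1 with 252 and 143. Markers of other cell types were summed in the same unit. The 6 fibroblast markers came to 3.58 and 5.20, the 4 astrocyte markers to 4.72 and 3.90, the 5 microglia and macrophage markers to 0.286 and 0.890, and the 3 endothelial markers to 5.44 and 6.09. The 4 oligodendrocyte markers came to 14.5 and 22.2, nearly all of it from Mbp with 189 and 309 reads, while Olig2 had 0 reads in both libraries. Mbp moved with the treatment label, and whether it has a part in any result below was not tested.

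The promoters of 4 members are shown first, so that the same 300 base window can be compared across them. The RefSeq table (GRCm38.p6) held windows from 250 bases before to 50 after the start for 8 of the 9 members, all but Vps35, and 4 of the 8 lay on chromosome 4. Pink1 and Dnajc6 were higher in the Mn-treated library, Park7 had the lowest ratio, and Uchl1 the highest level. Dnajc6 has 2 windows in the table, and the more GC-rich is shown. Each is written 5′ to 3′ on the gene's strand, and capitals mark a GC box, the letters GGGCGG on either strand.
Pink1 (chr4:138326247-138326546, minus strand): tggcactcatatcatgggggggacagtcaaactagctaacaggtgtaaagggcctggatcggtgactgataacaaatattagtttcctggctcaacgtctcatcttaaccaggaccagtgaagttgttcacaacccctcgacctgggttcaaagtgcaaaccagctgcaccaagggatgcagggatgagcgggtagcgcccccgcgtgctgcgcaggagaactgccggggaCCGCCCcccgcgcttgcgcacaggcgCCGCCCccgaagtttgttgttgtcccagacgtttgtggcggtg
Dnajc6 (chr4:101550344-101550643, plus strand): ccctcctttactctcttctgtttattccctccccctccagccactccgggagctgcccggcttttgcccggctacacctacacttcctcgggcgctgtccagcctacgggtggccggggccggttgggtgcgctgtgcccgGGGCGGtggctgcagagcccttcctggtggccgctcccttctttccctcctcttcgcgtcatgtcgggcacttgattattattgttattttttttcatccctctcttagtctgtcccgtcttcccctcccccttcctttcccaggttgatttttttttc
Park7 (chr4:150909872-150910171, minus strand): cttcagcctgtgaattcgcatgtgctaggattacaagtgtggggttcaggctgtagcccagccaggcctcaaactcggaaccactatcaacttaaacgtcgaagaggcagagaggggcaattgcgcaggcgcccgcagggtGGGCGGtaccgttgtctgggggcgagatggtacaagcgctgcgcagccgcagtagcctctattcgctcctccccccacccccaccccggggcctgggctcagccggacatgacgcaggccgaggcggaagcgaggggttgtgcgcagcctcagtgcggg
Uchl1 (chr5:66675871-66676170, plus strand): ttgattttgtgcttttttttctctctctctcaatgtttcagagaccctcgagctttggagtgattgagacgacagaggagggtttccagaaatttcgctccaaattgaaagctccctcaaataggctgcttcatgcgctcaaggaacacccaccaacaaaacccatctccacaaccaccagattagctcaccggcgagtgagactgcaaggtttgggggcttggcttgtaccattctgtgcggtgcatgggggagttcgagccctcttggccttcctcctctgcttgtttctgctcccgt
Overlapping GC boxes were counted separately. At least 1 GC box was found in 6 of the 10 member windows, against 35.7% of all 32851 windows. The Pink1 window held 2, the windows shown of Dnajc6 and Park7 held 1 each, and the Uchl1 window, the Dnajc6 window not shown and both Fbxo7 windows held 0. GC content was 58.0% in Pink1, 64.0% in Park7, 50.7% in Uchl1 and 58.7% in this Dnajc6 window, with a median of 52.7% over all windows. The E-box CACGTG, the core of the site of lysosomal gene regulators, was found in 1 window of Fbxo7 and in 7.15% of all windows. TGACNNNGC, the core of the antioxidant response element, TGATGNAA, an amino acid response element, and TATAAA, the TATA box, were not in any of the 10 member windows, against 12.4%, 3.97% and 13.6% of all windows. All motifs were searched on both strands, and a match is only a description of letters.

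The levels of the measured members ran from 0.38 to 651 FPKM in the untreated library and from 0.80 to 678 FPKM in the other. Levels are compared between genes in FPKM, the authors' unit of fragments per length and depth, and brackets give 95% intervals that cover counting error only. Uchl1, also a marker of neurons, stood at 651 [642 to 661] FPKM untreated and 678 [669 to 688] with Mn, above 99.0% and 99.2% of the measured genes. Park7 followed at 170 [165 to 176] and 138 [133 to 143], and Atp13a2 at 44.6 [43.2 to 46.0] and 48.9 [47.5 to 50.3]. These lay far apart from each other and from the rest in both libraries.

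A middle set lay close together. Pink1 was at 12 [11.01 to 13.1] FPKM untreated and 18.7 [17.5 to 19.98] with Mn. Vps35 was at 11.2 [10.5 to 11.9] and 20.6 [19.7 to 21.6]. Fbxo7 was at 9.63 [8.78 to 10.5] and 11.6 [10.7 to 12.6]. In the untreated library the intervals of Pink1 and Vps35, and those of Vps35 and Fbxo7, overlapped. Overlap alone does not place a difference within counting error, and the order of these genes there was not tested. With Mn the intervals of Vps35 and Pink1 still overlapped and both lay above that of Fbxo7. Sncb was lower, at 6.51 [5.66 to 7.45] and 7.04 [6.12 to 8.05]. Dnajc6, at 0.38 [0.279 to 0.505] and 0.80 [0.639 to 0.989], was above only 7.24% and 11.6% of the measured genes. Lrrk2 was at 0 and 0.16 [0.0330 to 0.468], on 0 and 3 reads, too few to compare its FPKM with that of other genes. In CPM it stood at 0 and 0.205, against 3.36 and 5.82 for Dnajc6.

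**Figure D1:**
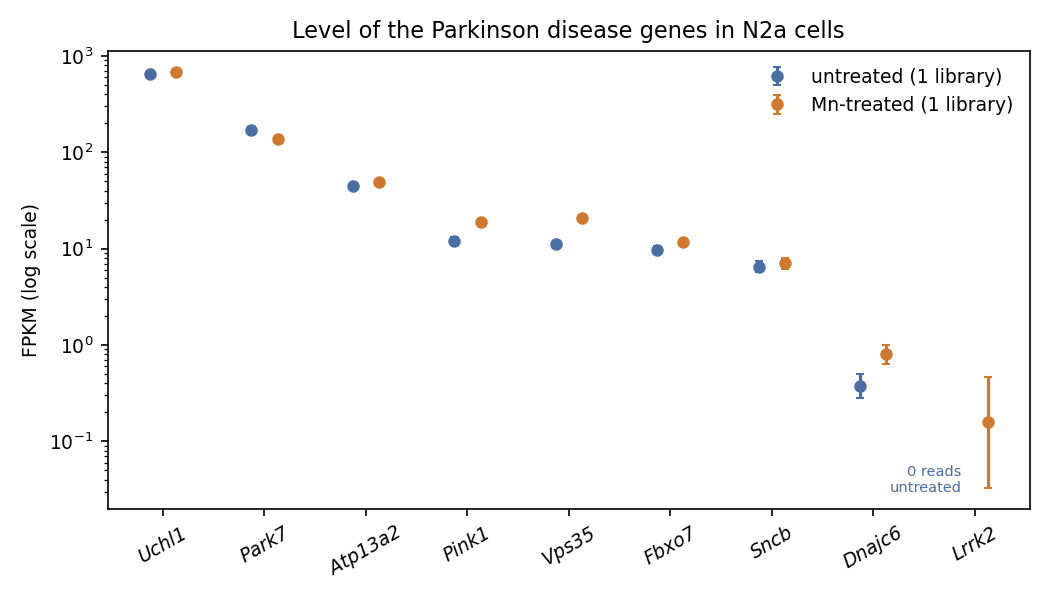
FPKM of the 9 genes (log axis) in the untreated and the Mn-treated library, 1 library each, with bars for 95% counting intervals. Uchl1 is at 651 and 678 FPKM, the 3 genes Pink1, Vps35 and Fbxo7 lie between 9 and 21, and Lrrk2, with 0 reads untreated, has no point there.

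The question of the comparison was whether Mn-treated cells hold more or less mRNA of these genes. Vps35, Dnajc6 and Pink1 were at least 1.5-fold higher with Mn. Park7, Uchl1, Atp13a2, Fbxo7 and Sncb lay within 1.5-fold, and Park7 had the lowest ratio of the measured members. A ratio is the share of mRNA reads in the Mn-treated over that in the untreated library, with 0.5 added to each count, and log2 of it is given. Genes with 20 or more reads in both libraries together are called measured, and 8 of the 9 members were. Past 1.5-fold, 21.6% of the 11872 measured genes were higher and 5.97% lower. Of the 8 measured members 3 were higher, or 37.5%, and 0 lower. The median log2 ratio of the members was 0.16 and that of all measured genes 0.18, so the members as a group sat at the level of the middle gene. All 9 members had whole counts in both libraries, while 13.3% of all genes had fractional ones. In bulk RNA, fewer cells that express a gene and less RNA per cell cannot be told apart.

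The value of 0.18 matters for reading the small ratios. Under median-ratio scaling, which centres the libraries on their shared genes, the middle gene moved to -0.0010, and 13.3% and 11.3% of genes were 1.5-fold higher and lower. Of the members 2 were then higher, Vps35 at 0.68 and Dnajc6 at 0.60, with Pink1 at 0.43, and 0 were lower.

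**Figure D2:**
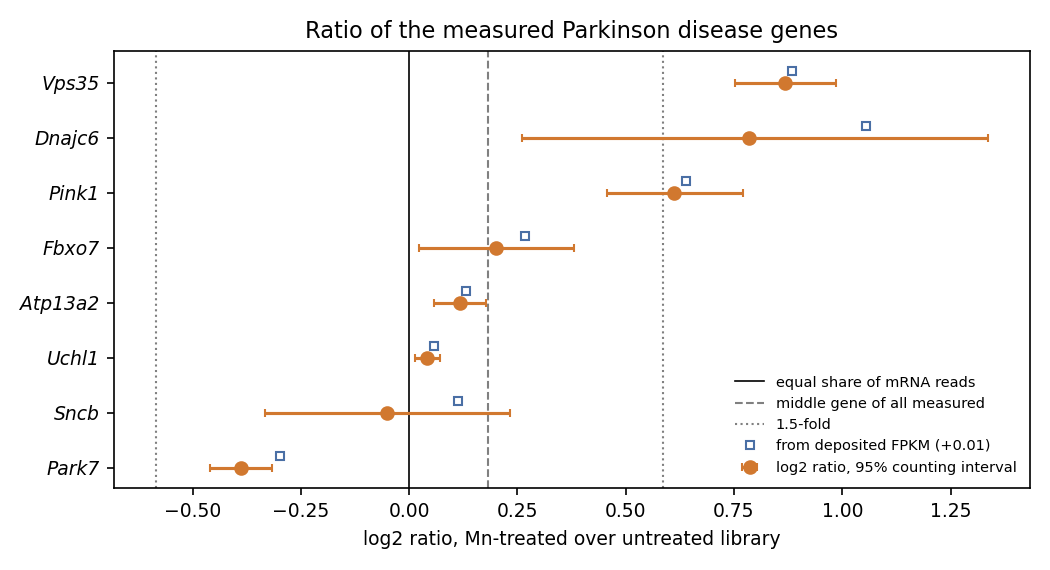
Log2 ratio of the 8 measured genes (Mn-treated over untreated library, 1 library each). Circles are ratios of read shares with 95% counting intervals, squares the ratio of the deposited FPKM values plus 0.01, the dashed line the middle gene at 0.18 and the dotted lines 1.5-fold. The intervals of Vps35, Dnajc6 and Pink1 lie above the middle gene, and those of Park7, Uchl1 and Atp13a2 below it.

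Vps35 had the highest ratio of the measured members. Untreated cells gave 926 reads and Mn-treated cells 1767, or 66.3 and 121 CPM, so the Mn-treated library was the high one. The ratio was 1.82 [1.68 to 1.98], a log2 ratio of 0.87 [0.75 to 0.98], higher than that of 89.7% of measured genes, and the authors' deposited table gives 0.89. Its counterparts in the cargo-binding trimer of retromer had smaller ratios. Vps26a, which joins VPS35 to membranes, had 263 and 414 reads, at 0.59 [0.36 to 0.82], and its paralog Vps26b had 954 and 1144, at 0.20 [0.07 to 0.32]. Vps29, the third subunit, had 1471 and 1597 reads, at 0.05 [-0.05 to 0.16], which turned to -0.13 under median-ratio scaling. The interval of Vps35 did not overlap those of Vps26b and Vps29. These subunits were named for their place in the complex, outside the rule for named genes.

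Among the other 23 measured genes of retromer, sorting nexins, the WASH complex and retromer cargo, 8 were higher and 0 lower by 1.5-fold. Under median-ratio scaling 4 were higher and 0 lower. Of all measured genes 21.6% were higher and 5.97% lower, or 13.3% and 11.3% under that scaling. Centred on genes of like length, 3 of the 23 were higher and 1 lower, against 12.5% and 9.52% of all measured genes. The middle gene of the 23 stood at a log2 ratio of 0.47, against 0.18 for all genes. Igf2r, a cargo that carries hydrolases to lysosomes, was highest at 1.63 [0.71 to 2.74] on 12 and 40 reads. Ankrd50, an endosomal sorting factor, had 84 and 161 reads, at 0.87 [0.49 to 1.27], and 1.84 in the authors' deposited table. Its counts were fractional. The lowest were the sorting receptor Sort1 at -0.21 [-0.37 to -0.05], also on fractional counts, and Snx3 at 0.01 [-0.06 to 0.09].

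Pink1, the kinase that starts mitophagy, had 541 and 865 reads, or 38.7 and 59.2 CPM. The Mn-treated library was the high one, by 1.53-fold [1.37 to 1.71], a log2 ratio of 0.61 [0.46 to 0.77]. The authors' deposited table gives 0.64. This ratio lies just past 1.5-fold. Of 35 further measured genes of mitochondrial import, dynamics and mitophagy, 8 were higher and 1 lower by 1.5-fold. The shares over all measured genes were 21.6% and 5.97%. Under median-ratio scaling 6 of the 35 were higher and 4 lower, against 13.3% and 11.3% of all measured genes. The median of the 35 was 0.15, close to that of all genes. Fundc1, a mitophagy receptor, had 48 and 122 reads, at 1.27 [0.79 to 1.79], but 0.74 in the authors' deposited table. The lowest were Tomm40, the import channel through which PINK1 enters mitochondria, with 2184 and 1476 reads, at -0.63 [-0.73 to -0.53], and Fkbp8, an outer membrane protein, at -0.48 [-0.53 to -0.44].

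Dnajc6, auxilin, had 47 and 85 reads, or 3.36 and 5.82 CPM. The Mn-treated library was again the high one, by 1.72-fold [1.20 to 2.53], a log2 ratio of 0.78 [0.26 to 1.34]. The authors' deposited table gives 1.07. Few reads leave this interval wide. Its widely expressed paralog Gak had 2816 and 2905 reads, at -0.02 [-0.09 to 0.06], with FPKM of 36.7 and 41.1, and so was far more abundant than auxilin in these cells. The sign of Gak depended on the measure, and was positive, at 0.16, in the authors' deposited table. Hspa8, the chaperone that auxilin brings to clathrin coats, had 32934 and 56799 reads, at 0.72 [0.70 to 0.74], and is named here for that role, outside the rule. Of 31 clathrin coat, adaptor and uncoating genes other than Dnajc6, 7 were higher and 1 lower by 1.5-fold, with a median of 0.16. Under median-ratio scaling 4 were higher and 2 lower. The shares over all measured genes were 21.6% and 5.97%, or 13.3% and 11.3% with that scaling. Dnm3, a dynamin, had 27 and 159 reads, at 2.47 [1.90 to 3.14], against 0.92 in the authors' deposited table. Snap91, a neuronal clathrin assembly protein, was at 0.95 on fractional counts, and 0.60 in that table. At the other end were Fcho1 with 353 and 160 reads, at -1.20 [-1.48 to -0.93] on fractional counts, and the adaptor subunit Ap2s1 at -0.42.

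Park7, which encodes DJ-1, had 3588 and 2865 reads, or 257 and 196 CPM. Here the untreated library was the high one, and the log2 ratio was -0.39 [-0.46 to -0.32], a ratio of 0.764 [0.727 to 0.802]. The authors' deposited table gives -0.30. This was the lowest ratio among the measured members, below that of all but 11.8% of measured genes, and it stayed within 1.5-fold at -0.57 under median-ratio scaling. In a list of 18 redox partners of DJ-1, 2 were higher and 0 lower by 1.5-fold, against 21.6% and 5.97% of all measured genes. Under median-ratio scaling 0 were higher and 0 lower, against 13.3% and 11.3%. The median of the list was 0.09. Nfe2l2, the NRF2 transcription factor, had 156 and 273 reads, at 0.74 [0.45 to 1.04], and Txnrd1, thioredoxin reductase, was at 0.61 [0.54 to 0.68]. Prdx5, a peroxiredoxin, was the lowest of them at -0.32 [-0.46 to -0.17].

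Fbxo7 had 471 and 566 reads, or 33.7 and 38.7 CPM. Its ratio was 1.15 [1.02 to 1.30], which is 0.20 [0.02 to 0.38] on the log2 scale. The interval held the middle gene, and under median-ratio scaling the value was 0.02. Its core ligase partners did not share 1 direction. Skp1a, the adaptor, was at 0.17 [0.08 to 0.26], which turned to -0.01 under median-ratio scaling, the scaffold Cul1 at 0.55 [0.34 to 0.77] and the RING subunit Rbx1 at -0.37 [-0.44 to -0.29]. Psmf1 (PI31), a proteasome regulator that binds FBXO7, was at -0.32 [-0.45 to -0.19]. These 4 were named for their role, outside the rule. Over 18 genes of the ligase list without Fbxo7, 2 were higher and 1 lower by 1.5-fold, with a median of 0.12. The shares over all measured genes were 21.6% and 5.97%. Under median-ratio scaling 2 of the list were higher and 3 lower, against 13.3% and 11.3% of all measured genes. Centred on genes of like length, 0 of the list were higher and 2 lower, against 12.5% and 9.52%. The highest were the F-box genes Fbxw7 and Fbxo11, both at 0.79, the second on fractional counts. The lowest were Traf2, a ubiquitin-linked adaptor, and Fbxo9 at -0.59 and -0.57.

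Uchl1 was the most abundant member, with 18308 and 19698 reads. Its log2 ratio of 0.04 [0.01 to 0.07] became -0.14 under median-ratio scaling, so its direction depends on the scale. Its relatives were also close to 0 by share of reads, but not all were under that scaling. Uchl3 had 210 and 233 reads, at 0.09 [-0.19 to 0.36], or -0.10 with that scaling. Uchl5 had 60 and 60, at -0.06 [-0.60 to 0.48], or -0.25 with it. The tumour suppressor Bap1 had 2052 and 1971, at -0.12 [-0.21 to -0.03], or -0.31 with it. Uchl4 had 0 reads in both libraries. Per length Uchl1 stood far above Uchl3, at 651 against 9.71 FPKM untreated.

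Atp13a2 had 4165 and 4722 reads, or 298 and 323 CPM. Its log2 ratio was 0.12 [0.06 to 0.18], and -0.07 under median-ratio scaling. The other P5-type ATPases with reads were Atp13a1, of the endoplasmic reticulum, with 2777 and 2762 reads, at -0.07 [-0.15 to 0.005], and Atp13a3, a polyamine transporter, with 825 and 1097 reads, at 0.35 [0.22 to 0.48]. Under median-ratio scaling Atp13a1 was at -0.26 and Atp13a3 at 0.16. Centred on genes of like length they were at -0.34 and -0.11, so the sign of Atp13a3 depends on the scale. Atp13a4 and Atp13a5 had 0 reads in both. Atp13a2 was the highest of the family per length, at 44.6 FPKM untreated against 30.7 for Atp13a1 and 4.74 for Atp13a3. Among 11 measured genes of polyamine handling 3 were higher and 2 lower by 1.5-fold, with a median of -0.10. Under median-ratio scaling 1 was higher and 3 lower. The shares over all measured genes were 21.6% and 5.97%, or 13.3% and 11.3% with that scaling. Sat1, which acetylates polyamines for export and breakdown, had 376 and 784 reads, at 1.00 [0.82 to 1.18], and Azin1, which spares ornithine decarboxylase, was at 0.76 [0.65 to 0.87]. Spermidine synthase Srm had 5812 and 3751 reads, at -0.70 [-0.76 to -0.64], and Oaz1, the antizyme that lowers ornithine decarboxylase, was at -0.59 [-0.64 to -0.54].

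Sncb had 210 and 212 reads, nearly the same number in libraries of similar size. Its log2 ratio was -0.05 [-0.33 to 0.23], and the authors' deposited table gives 0.11, so no direction can be read at this depth. Its relative Sncg, gamma-synuclein, had 96 and 109 reads, at 0.12 [-0.29 to 0.53], or -0.07 under median-ratio scaling. Per length, Sncb was at 6.51 and Sncg at 4.72 FPKM untreated, the higher of the pair being Sncb.

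Lrrk2 had 0 reads without and 3 with Mn, too few to count as measured. By a floor of 3 counts, 0 reads allow a share of up to 2.15e-05% of the mRNA reads, and 3 reads do not exceed that floor, so no fold is given. The authors' deposited table lists a log2 fold change of 7.32, which comes from 0 replaced by 0.001. The paralog Lrrk1 was well covered, with 635 and 395 reads, at -0.75 [-0.93 to -0.57]. The list of its relatives, Rab substrates and binding proteins had 26 measured genes without Lrrk2. Of these 3 were higher and 2 lower by 1.5-fold, with a median of 0.25. The shares over all measured genes were 21.6% and 5.97%. Under median-ratio scaling 3 of the list were higher and 3 lower, against 13.3% and 11.3% of all measured genes. Centred on genes of like length, 0 of the list were higher and 2 lower, against 12.5% and 9.52%. Rab8a and Rab10, the best known Rab substrates of LRRK2, are named outside the rule. They had 719 and 900 reads, at 0.26 [0.12 to 0.40], and 620 and 889 reads, at 0.46 [0.31 to 0.61]. Highest were Spag9, a motor adaptor that binds phosphorylated Rabs, at 0.92 [0.72 to 1.13] and Arhgef7 at 0.79 [0.64 to 0.94], on fractional counts. Lowest beside Lrrk1 was Rab32, at -0.72 [-1.24 to -0.22] on 87 and 55 reads.

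**Figure D3:**
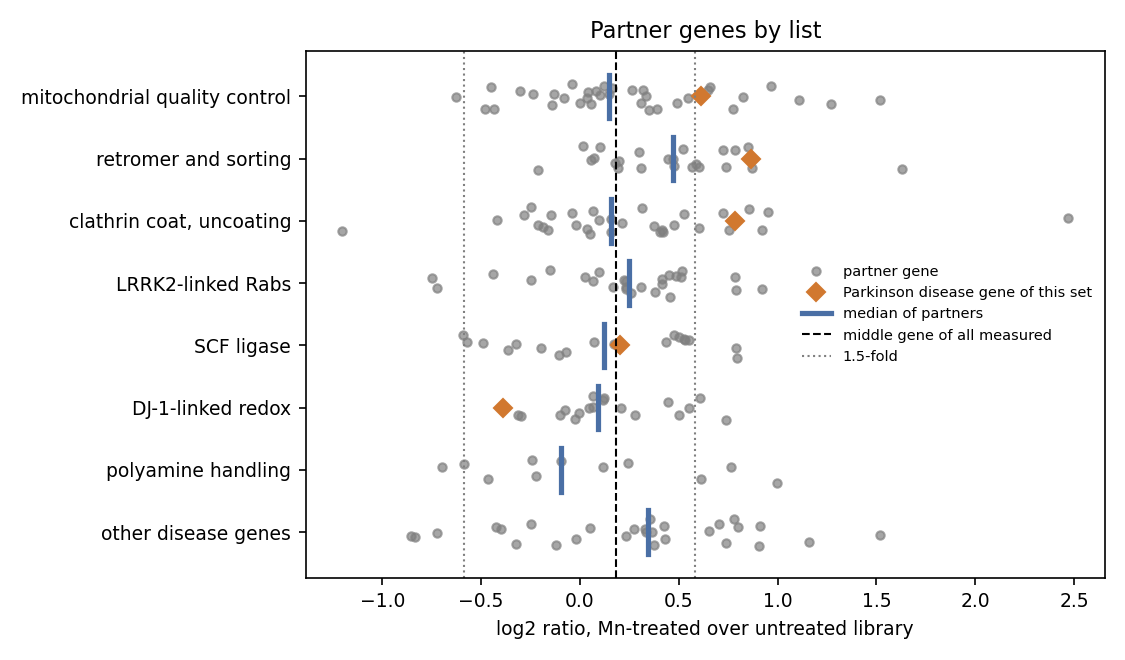
Log2 ratio (Mn-treated over untreated library) of every measured gene of 8 partner lists, with members as diamonds, the median of the partners as a bar, the middle gene as a dashed line and 1.5-fold as dotted lines. The bar of the retromer list is at 0.47, to the right of the middle gene at 0.18, and that of polyamine handling at -0.10, to the left. The lists overlap, and a gene is shown in each list that holds it.

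Further genes linked to Parkinson disease or parkinsonism were taken as a list of 33 in the table, of which 28 were measured. This list overlaps the partner lists above, and a gene such as Rab32 is counted in each list that holds it. By 1.5-fold 9 were higher and 3 lower, with a median of 0.35. Under median-ratio scaling 6 were higher and 4 lower. The shares over all measured genes were 21.6% and 5.97%, or 13.3% and 11.3% with that scaling. Ctsb, the lysosomal protease cathepsin B, had 1982 and 4636 reads, at 1.16 [1.09 to 1.24]. The lowest were Spr, an enzyme of tetrahydrobiopterin synthesis, with 662 and 382 reads, at -0.86 [-1.04 to -0.67], and Tmem230, a vesicle membrane protein, at -0.83 on only 14 and 8 reads. The Parkinson disease pathway in the table's annotation, which is mostly genes of the respiratory chain and ATP synthase, held 4 of the 9 members. Of its other 136 genes 119 were measured, and their median was 0.01. By 1.5-fold 17 of the 119 were higher and 5 lower, against the same 21.6% and 5.97%. Under median-ratio scaling 9 were higher and 13 lower, against 13.3% and 11.3%.

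Transcript length moved with the ratio across all genes and has to be read beside these values. An implied length was taken as reads divided by FPKM, relative to that of the middle gene. The median log2 ratio was -0.0071 in the shortest of 10 equal classes of measured genes and 0.46 in the longest, with a Spearman rho of 0.28 across 11872 genes, which are not independent replicates and whose length and ratio share the same counts. Across the 8 measured members alone, which are not replicates either, rho was 0.76. Among the members Park7 was short, at 0.354 of the middle length, while Atp13a2, Vps35 and Dnajc6 were long, at 1.61, 1.44 and 1.89. Against the median of its own length class, Vps35 was at 0.60, Pink1 at 0.54, Dnajc6 at 0.41 and Park7 at -0.38. Of the 8 members 1, Vps35, was then past 1.5-fold, a share of 12.5%. Among all genes 12.5% were higher and 9.52% lower on this scale, so the members' share was that of the background. Atp13a2 was at -0.15, Uchl1 at 0.06, Sncb at -0.03 and Fbxo7 at 0.13. The partners of Vps35 had a median of 0.26 on this scale, and the further disease genes one of 0.06. Without members, 3 of 23 genes of the retromer list were higher and 1 lower by 1.5-fold on it, and 5 and 2 of 35 in the mitophagy list. The clathrin list had 4 and 1 of 31, the redox list 1 and 0 of 18, and polyamine handling 1 and 1 of 11. Among the 28 further disease genes there were 4 and 3, and among 119 of the Parkinson disease pathway 14 and 6. The shares of all genes to set beside each list are the 12.5% and 9.52% above. The part of length in these ratios was not tested.

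**Figure D4:**
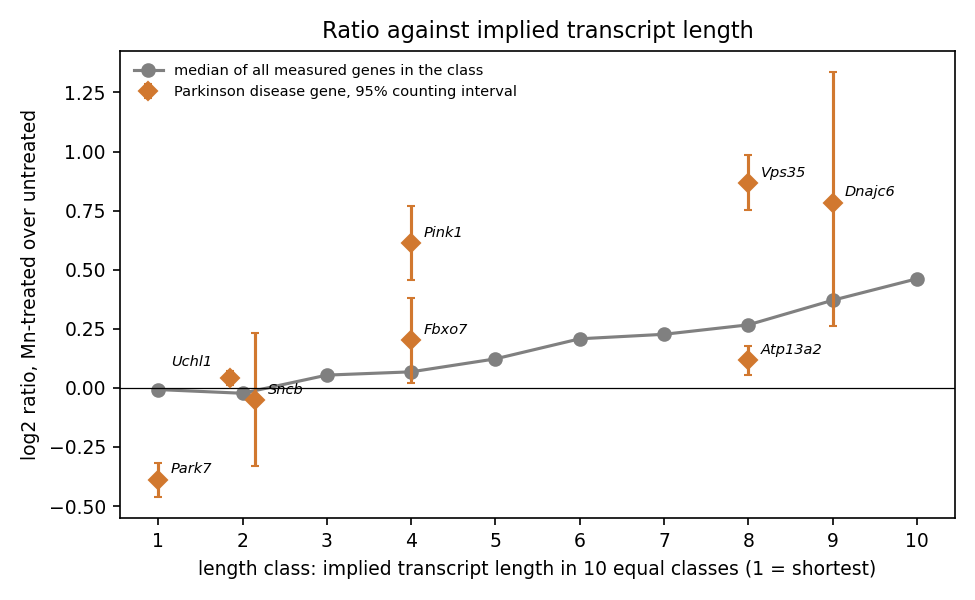
Log2 ratio (Mn-treated over untreated library) against the class of implied transcript length (1 to 10), with the median of all measured genes in grey and the 8 measured members as diamonds with 95% counting intervals. Sncb and Uchl1 share a class and are set apart sideways. The grey line runs from -0.0071 to 0.46, and Vps35 and Pink1 lie above it while Park7 and Atp13a2 lie below.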

How the data were processed

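Total RNA libraries of untreated and Mn-treated N2a cells (1 each) were compared; the small RNA libraries and the lncRNA table were not used here. The submitters' processing notes name StringTie, Bowtie2, fastp 0.18.0 and the build mm9 without their roles. For the counting program and annotation, the sources used here give no name. Deposited by the authors were estimated counts and FPKM per gene, a log2 fold change that is the ratio of FPKM values with 0 replaced by 0.001, and whole counts of circRNA junction reads. Columns were assigned by condition and RNA class, with 0 left over.

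Estimated counts were rounded, and shares were taken over column totals of 13972437 and 14606961 reads. Intervals are exact conditional binomial for ratios and Clopper-Pearson for levels, at 95%, and the limit beside a count of 0 is a floor of 3 counts. No molecular identifiers are named, so PCR copies are not independent and all intervals and floors cover counting error alone. Alternative scalings came from DESeq2 1.42.0 (median ratio) and edgeR 4.0.16 (TMM). No test across samples was possible. The ratio steps were tested on simulated counts.

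The members and lists were chosen with earlier results of these data known. Named are all members, every measured gene of the 4 paralog lists, and the 2 highest and 2 lowest of each other list. Single values of some genes that the lists take are not reported here.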

Additional observations from a re-analysis of the deposited data

How the results depend on the processing

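With 1 library per condition no replicate could be left out, and no result has a test. No paired analysis was possible because each condition had 1 library. Partner medians are given minus that of all genes. With median-ratio and TMM scaling the median of all genes was -0.0010 and 0.0067, that of the members -0.025 and -0.017, and the numbers of genes 1.5-fold higher and lower were 1580 and 1346, and 1614 and 1306. Under the same pair of scalings Vps35 was at 0.68 and 0.69, Pink1 at 0.43 and 0.44, Park7 at -0.57 and -0.56, Uchl1 at -0.14 and -0.13, and Atp13a2 at -0.066 and -0.059, all outside their counting intervals, as was Fbxo7 at 0.017 under median-ratio scaling. With the deposited FPKM values Park7 was at -0.30. Without a filter on low counts 3912 genes were higher and 1401 lower, since genes of few reads enter. With at least 100 reads the polyamine list was at -0.16. Centring on length classes, chosen after seeing the data, sets the median of all genes to 0 by construction. It gave 1480 higher and 1130 lower genes, 1 member 1.5-fold higher, Vps35 at 0.60 and Atp13a2 at -0.15. It moved the redox list, counted here with Park7, from -0.12 to 0.012, the Parkinson disease pathway without members from -0.17 to 0.019, further disease genes from 0.16 to 0.062 and polyamine handling from -0.28 to -0.16. A pseudocount of 1 moved none of these results past its limit. Among the members, few reads limit Lrrk2, Dnajc6 and Sncb.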

Other observations

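Genes that overlap a member or lie within 1000 bases of one are given first, and neighbours were read from gene order in RefSeq GRCm38.p6 alone. Orc6, a subunit of the origin recognition complex of DNA replication, lies within 1000 bases of Vps35 and had 224 and 200 reads and stood at -0.23 [-0.51 to 0.05] on the log2 scale, while Vps35 was at 0.87. Ddost, a subunit of the enzyme that attaches N-glycans, lies within 1000 bases of Pink1 and had 8889 and 8610 reads, at -0.11 [-0.15 to -0.07], while Pink1 was at 0.61. Fbxo7 overlaps the span of Syn3, a synapsin gene, which had 69 and 56 reads, at -0.36 [-0.90 to 0.16]. Counts of all these genes were whole. Whether the counting used strand is not given in the sources used here, so reads of Fbxo7 and Syn3 where they overlap cannot be told apart. These neighbours were chosen by position after the values of the members were seen. Neighbours farther away lay on either side of 0. Ak4 and Leprot, beside Dnajc6, were at 0.47 [0.07 to 0.88] and, on fractional counts, 0.36 [0.01 to 0.71], while Dnajc6 was at 0.78. Sdhb, beside Atp13a2, was at -0.17 [-0.20 to -0.14], while Atp13a2 was at 0.12.

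Of the 2253 circRNAs in the deposited table, which held 11665 and 9433 junction reads, 0 named a member as their source gene, and 36 named no gene. The share of all genes that host a circRNA was not counted, so the 0 is not read as a trait of the 9 members. The longer lists around the members did hold some. There were 8 from the 26 genes of the retromer list and 13 from the 34 of the clathrin list. The 36 genes of the mitophagy list gave only 2, the 33 further disease genes 4, and the 136 pathway genes without members 6. Without the share over all genes, these counts are not read as a trait of the lists either.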
